A study of Mus musculus with 54 samples.

Results

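When a follicle ovulates, its wall opens on the side facing away from the rest of the ovary tissue, while the opposite wall stays closed and begins to form the corpus luteum. The comparison described here set 13 libraries of the ruptured side against 12 libraries of the unruptured side of mouse follicles that had ruptured ex vivo in response to human chorionic gonadotropin (hCG), 25 of the 54 libraries of the series. Libraries were chosen by their labelled side and treatment, and all 25149 genes of the coding tables were considered. Both groups came from secondary follicles of CD-1 females 14 to 16 days old, grown singly in alginate to culture day 8 and then held for 12 h in maturation medium with serum, epidermal growth factor (EGF), recombinant follicle stimulating hormone and hCG. The 29 remaining libraries (15 putative unruptured and 14 putative ruptured sides) came from follicles given the same medium without hCG, whose sides were assigned by the swelling of the antrum and by an image model, since no opening existed.

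After the LH surge, which hCG stands in for by acting on the same receptor, mural granulosa cells turn from estrogen to progesterone synthesis, the cumulus cells around the oocyte loosen in a hyaluronan matrix, and proteases thin the wall at the site of rupture. The wall is layered: granulosa cells lie inside a basement membrane of type IV collagen and laminin, and theca cells, fibroblasts and vessels lie outside it in fibrillar collagen. A follicle grown from an isolated secondary follicle in a hydrogel has no blood supply and none of the surrounding stroma. By the study's account much of its theca is lost at isolation and a theca layer regrows in culture.

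Each library was a Smart-Seq2 preparation of a single microdissected side, with total counts of 1777104 to 2386552 (median 2134077.5) on the unruptured side and 1766651 to 2834734 (median 2192172) on the ruptured side. The labels name the tissue as the cumulus-oocyte complex, whereas the study's methods state that the complex was removed at dissection. The 12 oocyte genes listed, the zona pellucida genes among them, summed to at most 9.88 TPM, a level scaled for transcript length and depth, in any of the 25 libraries. Neither the labels nor the methods say which 2 sides came from the same follicle or which follicles shared an animal, so the p-values measure the spread between these samples. Each label carries a code of a letter and a number, whose meaning the sources do not state. Side and letter went together for most libraries, with 8 unruptured sides under B, 8 ruptured sides under D, and 4 unruptured and 5 ruptured sides under C. Values within letter C are therefore given for the count of genes called and for some single genes. The gene lists were not counted within a letter. A set of 3 libraries stood apart: unruptured replicate 4 had the highest sums of theca, immune, oocyte and surface epithelium markers, and ruptured replicates 4 and 13 were the only ruptured sides with a count for *Insl3*. List counts that shift most without these 3 are given beside the result. Of the genes named below as called, *Adcyap1*, *Amhr2*, *Ccnd2*, *Cdkn1b*, *Col4a2*, *Errfi1*, *Grem1*, *Gss*, *Hspa5*, *Kitl*, *Mmp15*, *Pappa*, *Ptges2*, *Tpm1* and *Trp53inp1* missed the threshold without them, and *Ccnb1*, *Cdh11*, *Cdk1*, *Dcn*, *Igfbp6*, *Pdgfra*, *Sult1e1* and *Wnt6* no longer passed the count filter.

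The sides differed in 1833 of the 8585 genes tested (21.4% at an adjusted p under 0.05, edgeR quasi-likelihood test), with 862 higher on the ruptured side (10%) and 971 higher on the unruptured side (11.3%). Large differences lay mostly toward the unruptured side: of the 50 genes with a log2 fold change of at least 2 in size (0.582% of those tested), 47 were higher there and 3 on the ruptured side. Throughout, a positive log2 fold change means higher on the ruptured side, a lone value in brackets after a gene is its log2 fold change, errors beside a value are standard errors, and p-values are adjusted by Benjamini-Hochberg over all genes tested. The balance of directions depended on how libraries were scaled. With library totals alone 397 genes were higher on the ruptured and 1830 on the unruptured side. A limma fit of log2(TPM + 1) called 171 and 2230. The median log2 fold change over all genes was 0.01 with TMM factors, −0.14 with library totals and −0.25 as a ratio of mean TPM, so a TPM level on the ruptured side reads lower, gene for gene, than the fold change beside it. Within code letter C, 748 genes were called, 294 higher on the ruptured and 454 on the unruptured side, and 592 of them were among the 1833. Without the 3 libraries that stood apart, 1646 genes were called and 1537 of those were shared.

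**Figure D1:**
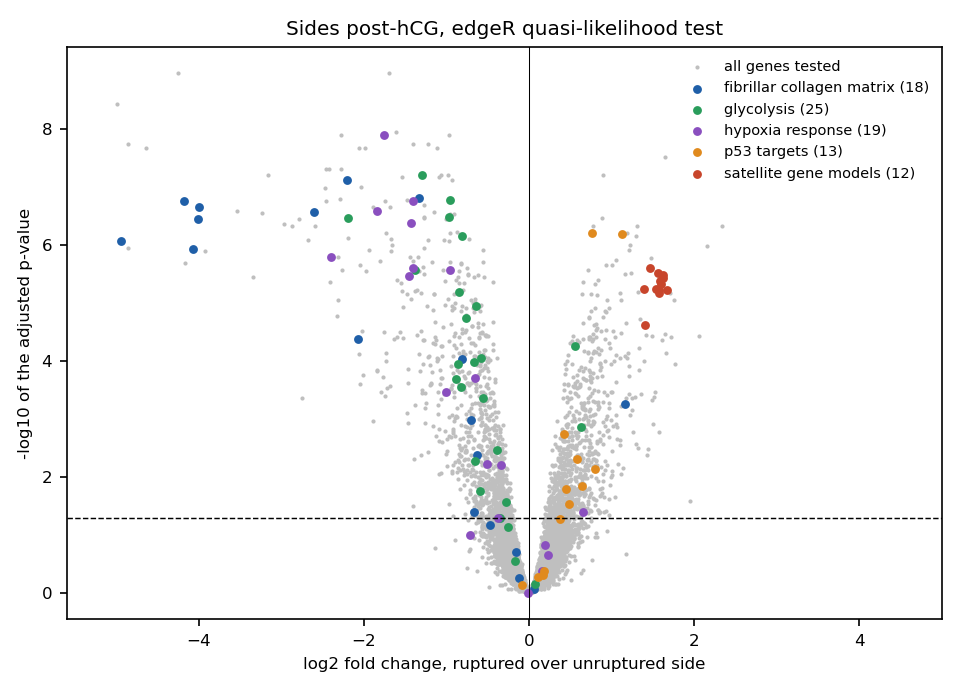
Each point is 1 of the 8585 genes tested post-hCG, with its log2 fold change (ruptured over unruptured, TMM scaling) on the horizontal axis, −log10 of its adjusted p on the vertical axis, a dashed line at an adjusted p of 0.05, and the members of 4 gene lists and of a group of 12 satellite gene models in colour. Glycolysis, hypoxia and collagen genes lie mostly to the left, the satellite models sit together at 1.40 to 1.67 on the right, and p53 targets lie mostly to the right, where 8 were called (5 calls with library totals and 2 with limma on TPM).

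A block of repeat sequence separated the sides post-hCG, where the unruptured side had the lowest median share of the 4 groups. A group of 12 gene models with related sequence, chosen after their values were seen, was higher in all 13 ruptured libraries than in any of the 12 unruptured ones. Their sequence is that of the mouse major satellite, the tandem repeat that forms the pericentromeric heterochromatin of mouse chromosomes. Of the models, 9 lie at chr9:3000922-3038316, 2 at chr2:98662237-98667301 and 1 at chr14:19415857-19418930 (GRCm38, GENCODE vM21). The best match of a transcript to itself lay at a spacing of 234 bases in 19 of their 26 transcripts, and between 44.5% and 95.3% of the 25-base words of a model occurred in another of the 12. The assignment of reads to a single copy is therefore uncertain, and the models are best read as a sum. The counts give no strand, so whether they came from RNA or from genomic DNA could not be told. The longest run present in all 12 is 30 bases, shown in capitals within 90 bases of 4 of the models (GENCODE vM21 transcripts, 5′ to 3′):
Gm10800: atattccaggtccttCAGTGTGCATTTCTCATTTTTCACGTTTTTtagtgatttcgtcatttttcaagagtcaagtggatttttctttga
Gm10801: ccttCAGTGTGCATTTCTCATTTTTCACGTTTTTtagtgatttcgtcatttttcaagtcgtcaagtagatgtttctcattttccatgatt
Gm11168: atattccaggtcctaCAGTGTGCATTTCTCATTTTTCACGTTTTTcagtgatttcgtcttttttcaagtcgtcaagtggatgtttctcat
Gm21738: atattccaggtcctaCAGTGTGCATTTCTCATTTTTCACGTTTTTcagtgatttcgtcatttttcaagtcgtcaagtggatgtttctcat

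Together these 12 models took 0.955% to 5.52% of the counts (median 3.29%) on the unruptured side and 6.33% to 16.0% (median 8.65%) on the ruptured side, so the ranges did not overlap. The most abundant, *Gm10800*, ran from 11791 to 66899 (median 43320.1) TPM in unruptured and from 86999 to 172688 (median 108899.7) in ruptured libraries (log2 fold change 1.58 ± 0.23, adjusted p = 6.7e-06). All 12 were called, with log2 fold changes of 1.40 to 1.67 and a largest adjusted p of 2.42e-05. Ranges in TPM did not overlap for any of the 12, against 101 of 8585 genes tested (1.18%), and in normalised CPM, counts scaled for depth with TMM factors, for 10 of the 12, against 65 of 8585 (0.757%). Of the 13 genes whose TPM lay wholly above the unruptured range these made up 12, and of the 23 whose normalised CPM did so, 10. Within code letter C *Gm10800* had a log2 fold change of 0.86 (adjusted p = 0.0248).

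Of the 4 groups, the unruptured side post-hCG had the lowest median share. Without hCG the same models took 1.17% to 17.8% (median 9.91%) on the putative unruptured and 2.66% to 18.9% (median 9.89%) on the putative ruptured side. Between those sides 0 of the 12 were called by edgeR, and 0 had an unadjusted p under 0.05, with log2 fold changes of 0.15 to 0.31, and the side difference changed with hCG for all 12 in the interaction test. The size of this group moved the scaling: with the 12 models left out of the library totals, 591 genes were higher on the ruptured and 1190 on the unruptured side, and with TPM rescaled without them the counts were 452 and 935, nearer to the TMM split than before.

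**Figure D2:**
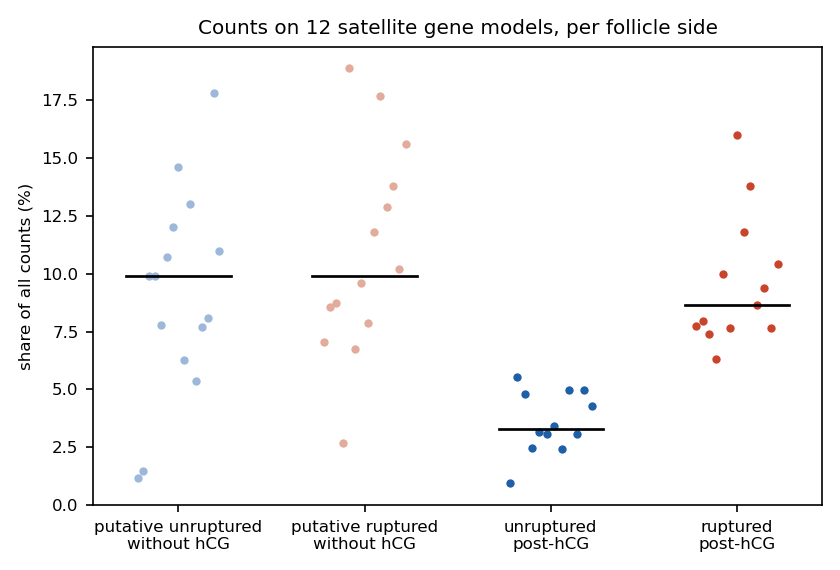
Share of each library's counts, in percent, that fell on the 12 satellite models, by group, with 1 point per library and a line at the median. The 13 ruptured sides post-hCG (6.33% to 16.0%) lie above all 12 unruptured sides (0.955% to 5.52%), while the 2 groups without hCG both span low and high shares.

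By fold change the named genes that led on the ruptured side were regulators of activin, hedgehog and Wnt signalling and a collagen cross-linking enzyme. *Fst* (chr13:114452290-114458951), follistatin, which binds and neutralises activins, ran from 2.38 to 14.2 (median 5.38) TPM in unruptured and from 10.6 to 50.4 (median 19.3) in ruptured libraries. Its fold was the largest toward the ruptured side (log2 fold change 2.34 ± 0.29, adjusted p = 4.59e-07), and its ranges did not overlap in normalised CPM although they did in TPM. *Gas1* (chr13:60174405-60177365), a membrane-anchored co-receptor for hedgehog ligands, ran from 4.45 to 35.2 (median 10.6) TPM in unruptured and from 21.6 to 91 (median 51) in ruptured libraries (log2 fold change 2.15 ± 0.28, adjusted p = 1.05e-06). The lowest ruptured side lay above the unruptured median, but the ranges overlapped. *Porcn* (chrX:8193848-8206525), the acyltransferase that lipidates Wnt ligands for secretion, ran from 3.63 to 57 (median 19.5) TPM in ruptured and from 2.86 to 16.3 (median 6.59) in unruptured libraries (log2 fold change 1.77 ± 0.32, adjusted p = 0.000113), with overlap. *Loxl3* (chr6:83034173-83052562), a lysyl oxidase that cross-links collagen and elastin, ran from 2.17 to 10.8 (median 6.8) TPM in ruptured and from 1.01 to 6.6 (median 3.75) in unruptured libraries (log2 fold change 1.71 ± 0.25, adjusted p = 6.59e-06). *Nap1l5* (chr6:58905233-58907076), an imprinted gene of the nucleosome assembly protein family, ran from 2.58 to 15.9 (median 8.24) TPM in ruptured and from 0.18 to 4.07 (median 2.25) in unruptured libraries (log2 fold change 1.76 ± 0.26, adjusted p = 8.93e-06). Both overlapped the unruptured range.

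The other 3 of the 8 leaders were low or uncertain. *Cdh15* (chr8:122847966-122867397), the adhesion protein M-cadherin, stayed at or below 3.85 TPM in every library (log2 fold change 2.06 ± 0.34, adjusted p = 3.67e-05), and within code letter C its fold change of 1.62 missed the threshold (adjusted p = 0.0589). *Dmbt1* (chr7:131032053-131121630), a scavenger receptor glycoprotein, was also low, from 0.17 to 2.95 (median 0.55) TPM in unruptured and from 0.47 to 3.47 (median 1.45) in ruptured libraries (log2 fold change 1.72 ± 0.28, adjusted p = 3.83e-05). *Rpl9-ps6* (chr19:32465865-32466578) is a pseudogene that shares reads with the ribosomal protein gene *Rpl9*, and it was listed at 0 in some libraries of both sides (log2 fold change 1.95 ± 0.63, adjusted p = 0.0259; adjusted p = 0.143 with DESeq2), so its value is uncertain. Just outside these 8 stood *Gm17535* (a satellite model, 1.67), *Nell1* (1.65) and *Vnn1* (1.65).

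On the unruptured side the leaders were retinoid enzymes, interstitial matrix genes, protease-related genes and a steroid-associated reductase. *Dhrs3* (chr4:144892827-144928209), which reduces retinaldehyde to retinol, ran from 4.33 to 27.6 (median 11.1) TPM in unruptured and from 0 to 2.19 (median 0) in ruptured libraries (log2 fold change −4.99 ± 0.44, adjusted p = 3.64e-09), and 6 of 13 ruptured libraries held a count. *Aldh1a1* (chr19:20492715-20643465), which oxidises retinaldehyde to retinoic acid, ran from 7.03 to 35.5 (median 16.9) TPM in unruptured and from 0 to 2.39 (median 0.34) in ruptured libraries (log2 fold change −4.25 ± 0.35, adjusted p = 1.08e-09). The ranges of both enzymes were separate on both scales. *Serpina3n* (chr12:104406729-104414329), a secreted serine protease inhibitor, was likewise separate, at 2.34 to 24.1 (median 7.44) TPM against 0 to 1.34 (median 0) TPM (log2 fold change −4.85 ± 0.47, adjusted p = 1.82e-08).

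*Akr1b7* (chr6:34412334-34423142), an aldo-keto reductase that clears the aldehyde released when cholesterol is cut to pregnenolone, was the most abundant of this group other than *Col3a1*, at 8.15 to 497 (median 132) TPM against 2.19 to 9.08 (median 3.88) TPM (log2 fold change −4.64 ± 0.46, adjusted p = 2.14e-08). Its lowest unruptured value lay just below the highest ruptured one. *Col3a1* (chr1:45311538-45349706), the type III collagen chain, ran from 45.7 to 1187 (median 247) TPM in unruptured and from 0.82 to 41 (median 3.67) in ruptured libraries (log2 fold change −4.94 ± 0.63, adjusted p = 8.65e-07), apart in TPM and overlapping in normalised CPM. *Mmp2* (chr8:92827291-92853420), gelatinase A, ran from 1.44 to 78.6 (median 8.38) TPM in unruptured and from 0 to 3.13 (median 0.10) in ruptured libraries (log2 fold change −4.85 ± 0.63, adjusted p = 1.12e-06). *Col1a2* (chr6:4504814-4541544), a type I collagen chain, had a log2 fold change of −4.18, and *Igfbp3* (chr11:7206086-7213923), a carrier of insulin-like growth factors, one of −4.17. The size of several of these folds depended on the 3 libraries that stood apart. Without them *Col3a1* was at −6.09, *Igfbp3* at −6.19, *Serpina3n* at −6.29, *Dhrs3* at −5.70, *Col1a2* at −5.16 and *Aldh1a1* at −4.88. Those 3 libraries were set apart in part by theca markers, which include *Col3a1*, *Col1a2* and *Aldh1a1*. Such shifts are therefore no check on the folds. Leaving out ruptured replicate 4 alone moved *Dhrs3* to −5.74 and *Igfbp3* to −5.46, ruptured replicate 13 alone moved *Serpina3n* to −5.53, and unruptured replicate 4 alone moved *Mmp2* to −4.02. The next genes outside the 8 were *Dcn* (−4.08), *Bgn* (−4.0) and *Col1a1* (−4.0), all of interstitial matrix.

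**Figure D3:**
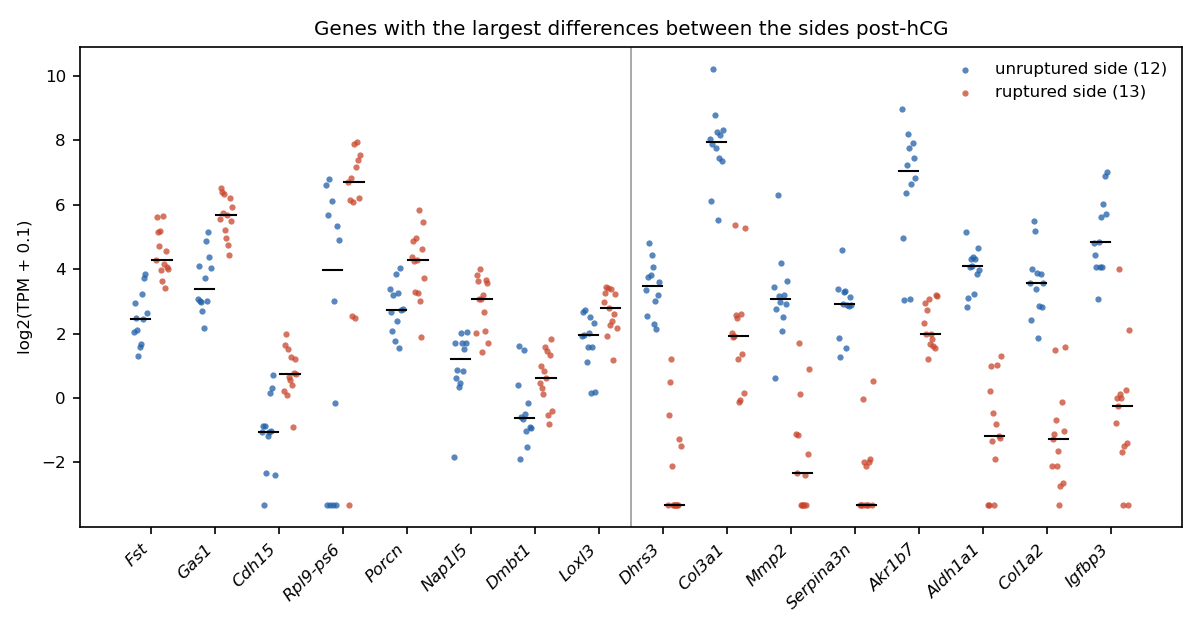
Level in each of the 25 libraries, as log2(TPM + 0.1), of the 8 genes with the largest log2 fold change toward the ruptured side (left of the grey line) and toward the unruptured side (right), 1 point per library and a line at the median. On the right, the medians of *Dhrs3* and *Serpina3n* are 0 TPM on the ruptured side, and on the left the ranges of the sides overlap for all 8 genes.

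Markers of the theca layer moved with side. Of 18 theca and interstitial markers 8 passed the count filter. Of these, 6 were called toward the unruptured side and *Fbln1* toward the ruptured side. Their median log2 fold change was −4.04, beside 0.01 over all genes tested. Markers near 0 on the ruptured side, such as *Pdgfra*, passed the filter through the unruptured libraries. The median therefore describes those 8 only and is not independent of side. The 18 together summed to 137 to 1423 (median 403) TPM in unruptured and 32.4 to 104 (median 56.8) TPM in ruptured libraries. *Insl3*, a peptide hormone of theca cells, ran from 1.02 to 76.1 (median 40.3) TPM in unruptured and from 0 to 3.74 (median 0) in ruptured libraries, with counts in 2 of 13 ruptured libraries, both among the 3 that stood apart (log2 fold change −5.79 ± 0.64, adjusted p = 1.16e-08 without the filter); it did not pass the filter. *Pdgfra*, a receptor of mesenchymal cells, ran from 0.96 to 6.55 (median 1.86) TPM in unruptured and from 0 to 0.83 (median 0) in ruptured libraries (log2 fold change −3.93 ± 0.51, adjusted p = 1.26e-06). *Cyp17a1*, the androgen-forming enzyme that defines theca cells, was at 0 in all ruptured libraries and at most 1.21 TPM on the unruptured side, and *Gli1* was at 0 in all unruptured libraries. Without the 3 libraries that stood apart, 4 of 6 tested theca markers were higher on the unruptured side and the median was −5.02. Theca genes had helped to set those 3 apart. Ruptured replicates 4 and 13 held the highest theca sums of their side (87.3 and 104 TPM). Leaving them out is therefore no check on the theca difference. In bulk samples fewer cells of a type and less RNA per cell cannot be told apart.

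Granulosa markers were present on both sides, the 16 listed summing to 1029.5 to 2253 (median 1605) TPM in unruptured and 898 to 1711 (median 1396) TPM in ruptured libraries. Of 10 tested, 5 were higher on the ruptured side (*Fst*, *Nap1l5*, *Inhbb*, *Inhba*, *Nr5a2*) and 2 on the unruptured side (*Kitl*, *Amhr2*), with a median log2 fold change of 0.58. Both unruptured-side calls were lost without the 3 libraries that stood apart, and with TPM rescaled without the satellite models, which left 5 and 0 in each case. The study lists *Nap1l5* and *Inhba* among its top putative ruptured genes and *Fst* among its top ruptured genes, from these same data. Their calls are therefore not separate support for a granulosa difference. None of the 14 immune, 12 oocyte, 9 surface epithelium or 6 red blood cell markers passed the filter. Immune markers summed to 1.4 to 109.9 (median 14.9) TPM in unruptured and 0.30 to 4.66 (median 1.06) TPM in ruptured libraries, where 5 of 14 were at 0. Most of the sum was *Lyz2*, the macrophage lysozyme, at 0 to 95.6 (median 10.5) against 0 to 1.82 (median 0) TPM. Of 4 smooth muscle markers tested, 2 were higher on the unruptured side (*Cald1* −1.88, *Tpm1* −0.31; 1 without the 3 libraries that stood apart), and neither of 2 endothelial markers was called. What part these cell types had in the differences that follow was not tested.

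**Figure D4:**
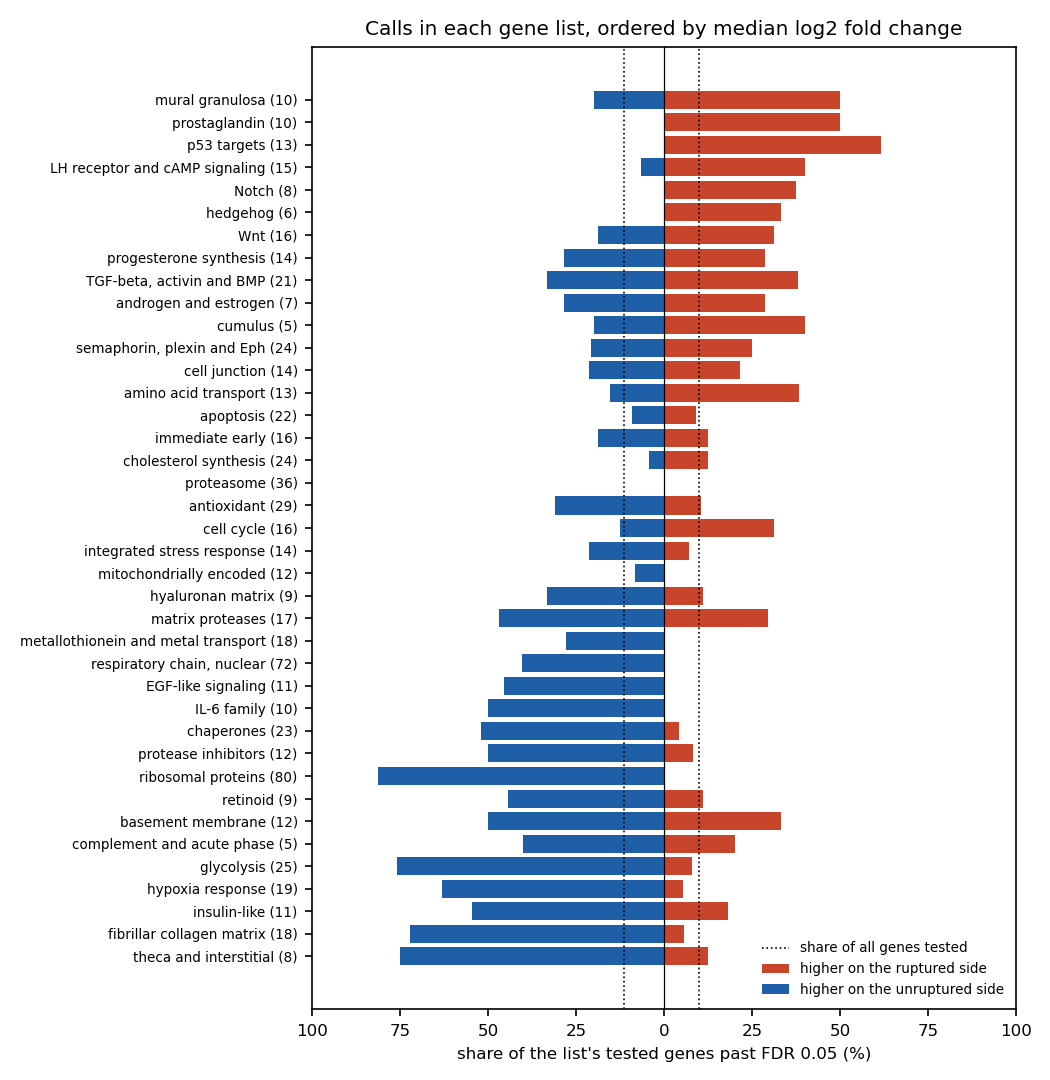
Share, in percent, of each list's tested genes (number in brackets) called higher on the ruptured side (red, to the right) and on the unruptured side (blue, to the left) with TMM scaling, lists ordered by their median log2 fold change, with dotted lines at the 10% and 11.3% of all genes. Glycolysis, hypoxia response, fibrillar collagen and ribosomal protein genes were called mostly toward the unruptured side on this and the other scalings tried, whereas the balance of calls for the TGF-beta, prostaglandin, Wnt, semaphorin, cholesterol, cumulus and androgen lists turned with library totals or TPM.

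Genes of progesterone synthesis did not move together: of 14 tested, 4 were higher on each side, with a median log2 fold change of 0.23 that became −0.02 with limma on TPM. *Lhcgr*, the receptor for LH and hCG, ran from 129 to 470.2 (median 295) TPM in ruptured and from 61.7 to 279.9 (median 147) in unruptured libraries (log2 fold change 1.28 ± 0.26, adjusted p = 0.00041), with overlap. *Star*, which carries cholesterol to the inner mitochondrial membrane, went the other way, from 132 to 556 (median 341) TPM in unruptured and from 92.1 to 169 (median 136) in ruptured libraries (log2 fold change −0.95 ± 0.19, adjusted p = 0.000303). The fit of all 4 groups did not call it (adjusted p = 0.0766). *Cyp11a1*, the side-chain cleavage enzyme that acts next, ran from 2007 to 5599 (median 3508) TPM in unruptured and from 2732 to 6169 (median 4272) in ruptured libraries, a difference that did not pass the test (log2 fold change 0.37 ± 0.17, adjusted p = 0.12). *Hsd3b1*, which makes progesterone from pregnenolone, was higher on the ruptured side by 0.56 on the log2 scale, as was *Fdxr*, the reductase that feeds electrons to the side-chain cleavage enzyme, by 0.61.

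The cleanest separation in this list belonged to *Por*, the reductase that supplies electrons to microsomal cytochromes P450, from 30.5 to 58.7 (median 44.2) TPM in unruptured and from 9.67 to 29.8 (median 18.6) in ruptured libraries. Its ranges did not overlap on either scale (log2 fold change −0.96 ± 0.13, adjusted p = 1.96e-06). *Tspo*, an outer mitochondrial membrane protein, also had separate ranges (−0.53). Of 24 cholesterol synthesis and uptake genes, 3 were higher on the ruptured side (*Dhcr7* 0.76 and *Sc5d* 0.51 among them) and 1 on the unruptured side (*Cyp51* −0.63), a balance that library totals turned to 2 and 5. These 4 calls were 16.7% of the list, below the 21.4% of all genes tested. Beyond *Akr1b7*, androgen and estrogen genes gave 2 calls on the ruptured side, *Akr1c14* (0.88) and the estrogen sulfotransferase *Sult1e1* (0.80), and 1 on the unruptured side, *Srd5a1* (−0.62), the steroid 5-alpha reductase.

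Receptor and cAMP signalling genes leaned toward the ruptured side with TMM scaling, 6 of 15 tested against 1, and were even at 3 and 3 with limma on TPM. *Gnao1*, the alpha subunit of the inhibitory G protein Go, ran from 31.8 to 88.9 (median 58.5) TPM in ruptured and from 9.08 to 36 (median 21.9) in unruptured libraries (log2 fold change 1.65 ± 0.17, adjusted p = 2.98e-08), separate in normalised CPM. The inhibitory somatostatin receptor *Sstr1* (1.29), the protein kinase A subunit *Prkar2b* (0.97) and the adenylyl cyclases *Adcy9* (0.60) and *Adcy3* (0.45) were also higher there. *Adcyap1*, which encodes the peptide PACAP, was higher on the unruptured side (−0.67).

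Glycolysis genes were higher on the unruptured side nearly throughout: of 25 genes listed and tested, 19 were called in that direction and 2 in the other, with a median log2 fold change of −0.66, against 11.3% and 10% of all genes in those directions. Library totals gave 22 and 2, and limma on TPM 21 and 0. *Slc16a3*, the transporter that exports lactate, ran from 121 to 316 (median 255) TPM in unruptured and from 53.7 to 103 (median 82.4) in ruptured libraries (log2 fold change −1.30 ± 0.14, adjusted p = 6.25e-08), and its TPM ranges were separate. Glucose uptake was represented by *Slc2a3* (−2.19) and *Slc2a1* (−0.87). Along the pathway *Gpi1* (−0.97), the phosphofructokinase *Pfkl* (−0.96), *Tpi1* (−0.85), *Pgk1* (−0.89), *Eno1* (−0.59) and the pyruvate kinase *Pkm* (−0.65) were all higher on the unruptured side. The 2 exceptions were *Pfkfb3* (0.55) and *Pfkfb4* (0.63), which set the level of an allosteric activator of phosphofructokinase; *Pfkfb3* was separate in normalised CPM.

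Genes of the response to low oxygen, most of them targets of hypoxia-inducible factor, went the same way, 12 of 19 tested higher on the unruptured side and 1, *Epas1* (0.65), higher on the ruptured side (median −0.71; 13 and 1 without the 3 libraries that stood apart). *Fam162a*, a mitochondrial protein gene induced by low oxygen, ran from 279.8 to 1139 (median 634) TPM in unruptured and from 110.0 to 232 (median 159) in ruptured libraries (log2 fold change −1.75 ± 0.17, adjusted p = 1.28e-08) and was separate on both scales. *Egln3*, a prolyl hydroxylase that marks the factor for breakdown, ran from 1.55 to 10.3 (median 5.34) TPM in unruptured and from 0.29 to 3.31 (median 0.58) in ruptured libraries (log2 fold change −2.40 ± 0.32, adjusted p = 1.61e-06). *Ndrg1* (−1.85), *Hilpda* (−1.45), *P4ha2* (−1.42), *Higd1a* (−1.40), *Bnip3* (−1.01) and *Bnip3l* (−0.96) followed. *Hif1a* itself did not pass the test (log2 fold change 0.23 ± 0.13, adjusted p = 0.218).

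The factor binds the core ACGTG, and the promoters of *Fam162a* (chr16:36071512-36071811, minus strand) and *Egln3* (chr12:54203825-54204124, minus strand) are shown because these genes had the firmest and the largest fold of the list, from 250 bases before to 50 after the start (RefSeq, GRCm38.p6), with each match in capitals (CACGT where it lies on the opposite strand):
Fam162a: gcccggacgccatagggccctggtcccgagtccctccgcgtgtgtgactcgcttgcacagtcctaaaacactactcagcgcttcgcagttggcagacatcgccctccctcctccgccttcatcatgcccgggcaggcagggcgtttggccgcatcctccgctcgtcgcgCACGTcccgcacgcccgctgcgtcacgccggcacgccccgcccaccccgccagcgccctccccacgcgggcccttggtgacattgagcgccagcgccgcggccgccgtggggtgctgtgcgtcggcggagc
Egln3: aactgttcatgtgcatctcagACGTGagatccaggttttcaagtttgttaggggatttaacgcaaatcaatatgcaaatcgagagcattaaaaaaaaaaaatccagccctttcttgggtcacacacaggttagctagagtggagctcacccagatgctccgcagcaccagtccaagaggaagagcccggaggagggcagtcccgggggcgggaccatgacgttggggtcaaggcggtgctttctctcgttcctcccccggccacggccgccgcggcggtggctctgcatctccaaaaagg

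Searched on both strands, ACGTG occurred in such a window for 7 of the 9 hypoxia genes higher on the unruptured side that had one (77.8%) and for 11 of 18 glycolysis genes (61.1%). It also occurred for 6 of the 10 genes of these lists that were tested and not called higher there (60.0%), and for 5886 of 27025 genes in all (21.8%). The shares describe the windows and were not tested.

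Metallothioneins, small metal-binding proteins, were higher on the unruptured side: *Mt1* ran from 492 to 2622 (median 1435) TPM in unruptured and from 329.6 to 1269 (median 496) in ruptured libraries (log2 fold change −1.21 ± 0.21, adjusted p = 8.32e-05), and *Mt2* had a log2 fold change of −1.10. Of 18 metal-handling genes tested, 5 were higher on that side (27.8%, beside 11.3% of all genes tested) and none on the ruptured side. The others were the metalloreductase *Steap1* (−1.36), *Slc39a1* (−0.35) and *Atp7a* (−0.43). Both promoters hold the core of the metal response element, TGCNCNC, 3 times in *Mt1* (chr8:94178839-94179138, plus strand) and 6 times in *Mt2* (chr8:94172368-94172667, plus strand). The core occurred in the windows of 14492 of 27025 genes (53.6%). Matches on either strand are in capitals (RefSeq, GRCm38.p6), and neighbouring matches can touch or overlap:
Mt1: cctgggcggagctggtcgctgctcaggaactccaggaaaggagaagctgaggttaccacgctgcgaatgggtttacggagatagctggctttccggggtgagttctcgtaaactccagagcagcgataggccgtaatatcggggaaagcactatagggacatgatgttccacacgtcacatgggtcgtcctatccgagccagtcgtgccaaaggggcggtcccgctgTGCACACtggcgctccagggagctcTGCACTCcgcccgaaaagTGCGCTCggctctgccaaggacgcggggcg
Mt2: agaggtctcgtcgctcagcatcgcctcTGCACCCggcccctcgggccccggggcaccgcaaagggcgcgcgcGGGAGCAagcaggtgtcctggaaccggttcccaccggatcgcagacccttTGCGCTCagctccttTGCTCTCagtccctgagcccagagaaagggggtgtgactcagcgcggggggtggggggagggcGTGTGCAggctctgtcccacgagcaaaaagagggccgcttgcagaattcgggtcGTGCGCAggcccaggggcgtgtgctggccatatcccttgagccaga

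Genes of the interstitial matrix were higher on the unruptured side, 13 of 18 tested against 1 on the ruptured side, with a median log2 fold change of −1.07 (12 of 17 and −0.82 without the 3 libraries that stood apart). The summed theca markers given above, which share *Col1a1*, *Col1a2*, *Col3a1*, *Dcn* and *Lum* with this list, moved with them, and their part was not tested. *Col6a2*, a type VI collagen chain, ran from 2.79 to 12.3 (median 5.71) TPM in unruptured and from 0.21 to 2.48 (median 1.0) in ruptured libraries (log2 fold change −2.21 ± 0.24, adjusted p = 7.38e-08) and was separate on both scales. The small proteoglycans *Dcn* (−4.08) and *Bgn* (−4.0), the multiplexin chain *Col15a1* (−2.60) and the collagen lysyl hydroxylase *Plod1* (−1.33) were among the larger differences. *Lox*, the cross-linking lysyl oxidase, was the exception on the ruptured side, from 7.17 to 67.4 (median 26.4) TPM in ruptured and from 8.22 to 25 (median 16.3) in unruptured libraries (log2 fold change 1.16 ± 0.24, adjusted p = 0.000542), while its relative *Loxl1* was higher on the unruptured side (−2.07).

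The basement membrane list was mixed. *Nid1*, nidogen, which links laminin to collagen IV, was higher on the unruptured side, from 2.81 to 22 (median 9.36) TPM in unruptured and from 0.46 to 4.2 (median 1.65) in ruptured libraries (log2 fold change −2.28 ± 0.24, adjusted p = 4.9e-08), with *Col4a1* (−0.59), *Col4a2* (−0.47), *Lama4* (−0.51), *Lamb1* (−0.47) and the perlecan gene *Hspg2* (−0.50). *Col18a1* (0.97), *Lamb2* (0.67), *Lama1* (0.45) and *Lamc1* (0.35) were higher on the ruptured side, which made 4 against 6 of 12 tested. Limma on TPM called 0 and 6.

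Among 17 matrix proteases tested, 8 favoured the unruptured and 5 the ruptured side. The ruptured-side calls were *Adamts1*, which cleaves versican and is needed for normal ovulation, from 124 to 493 (median 283) TPM in ruptured and from 58.4 to 306 (median 191) in unruptured libraries (log2 fold change 0.92 ± 0.21, adjusted p = 0.00131), with *Htra1* (1.05), *Mmp15* (0.83), *Mmp23* (0.82) and *Adamts5* (0.68). *Adamts1* missed the threshold within code letter C (adjusted p = 0.113) and with limma on TPM (adjusted p = 0.0853). *Adam22*, a catalytically inactive member of the ADAM family, was under the filter, from 0.83 to 3.59 (median 2.39) TPM in ruptured and from 0 to 1.45 (median 0.50) in unruptured libraries (log2 fold change 2.25 ± 0.29, adjusted p = 3.28e-07 without the filter). On the unruptured side stood *Mmp2*, the urokinase gene *Plau* (−1.28), *Plat* (−0.53), *Mmp11* (−0.97), *Adamts9* (−0.41) and the cathepsins *Ctsb* (−0.80), *Ctsh* (−0.67) and *Ctsd* (−0.32).

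Of 12 inhibitors of these enzymes 6 were higher on the unruptured and 1 on the ruptured side. *Timp1*, a metalloproteinase inhibitor, ran from 2238 to 3922 (median 2993) TPM in unruptured and from 1321 to 2361 (median 1753) in ruptured libraries (log2 fold change −0.57 ± 0.12, adjusted p = 0.000819). The fit of all 4 groups did not call it (adjusted p = 0.22). *Timp3* (−0.76), cystatin C (*Cst3*, −0.74), *Tfpi* (−0.85) and *A2m* (−0.52) accompanied *Serpina3n*. *Serpine2*, protease nexin 1, an inhibitor of thrombin and plasminogen activators, was the exception, from 357 to 1362 (median 645) TPM in ruptured and from 172 to 544 (median 287) in unruptured libraries (log2 fold change 1.47 ± 0.20, adjusted p = 1.64e-06). *Serpinb2*, plasminogen activator inhibitor 2, did not pass the count filter and ran from 0.72 to 50.7 (median 15) TPM in unruptured and from 0 to 1.0 (median 0.18) in ruptured libraries (log2 fold change −5.65 ± 0.55, adjusted p = 1.18e-09 without the filter).

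Signals that drive ovulation in the granulosa layer were split between the sides. *Ptgs2*, the inducible cyclooxygenase, ran from 3.3 to 22.9 (median 9.08) TPM in ruptured and from 2.12 to 16.3 (median 7.15) in unruptured libraries (log2 fold change 0.83 ± 0.29, adjusted p = 0.0366). That call was fragile: it was lost with DESeq2 (adjusted p = 0.0578), with library totals (0.0917), within code letter C (0.347) and on leaving out any of 9 of the 25 libraries. Prostaglandin genes gave 5 calls of 10 tested on the ruptured side, the others being the synthases *Ptges3* (0.42) and *Ptges2* (0.52), the receptor *Ptgfr* (0.71) and the transporter *Slco2a1* (0.58). With limma on TPM the calls were 0 there and 1 on the unruptured side. EGF-like signalling leaned to the unruptured side, 5 of 11 against 0. *Ereg*, epiregulin, ran from 3.72 to 35.8 (median 16.1) TPM in unruptured and from 2.27 to 13.9 (median 4.57) in ruptured libraries (log2 fold change −1.22 ± 0.30, adjusted p = 0.00363), and *Egfr* (−0.49), *Dusp4* (−1.17), *Spry4* (−0.79) and *Errfi1* (−0.49), the last 3 feedback inhibitors of the pathway, followed. *Areg*, amphiregulin, was under the filter, from 1.42 to 22.9 (median 8.14) TPM in unruptured and from 0.61 to 7.22 (median 1.71) in ruptured libraries (log2 fold change −1.82 ± 0.33, adjusted p = 0.000112 without the filter).

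Of 9 hyaluronan genes tested, 3 enzymes that supply its sugar precursors were higher on the unruptured side and 1 matrix partner on the ruptured side. *Ugdh*, which makes the UDP-glucuronate used for hyaluronan, was higher on the unruptured side, from 11.5 to 54.4 (median 24.4) TPM in unruptured and from 3.57 to 11.6 (median 6.96) in ruptured libraries (log2 fold change −1.48 ± 0.17, adjusted p = 1.64e-07), with *Ugp2* (−0.57) and *Gfpt2* (−0.58). *Vcan*, versican, a proteoglycan that binds hyaluronan, ran from 199 to 666 (median 340.0) TPM in ruptured and from 84.4 to 329 (median 209) in unruptured libraries (log2 fold change 1.20 ± 0.21, adjusted p = 7.28e-05). The cumulus list gave 2 calls on the ruptured and 1 on the unruptured side of 5 tested, 1 and 2 with library totals. *Has2*, the hyaluronan synthase of cumulus expansion, was at most 0.54 TPM in any library and did not pass the filter (log2 fold change −1.67 ± 0.55, adjusted p = 0.0416 without the filter).

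Activin and BMP genes gave 8 calls on the ruptured and 7 on the unruptured side of 21 tested, with the median turning from 0.13 to −0.02 under library totals. Beside *Fst*, the activin subunits were higher on the ruptured side, *Inhbb* from 1.02 to 6.33 (median 3.23) TPM in ruptured and from 0.50 to 3.19 (median 1.31) in unruptured libraries (log2 fold change 1.49 ± 0.25, adjusted p = 3.67e-05) and *Inhba* by 0.89. The BMP antagonist *Grem1* (0.90) was on that side too. *Bmp2* (−1.47), the receptors *Tgfbr2* (−1.15) and *Tgfbr3* (−0.85), and the follistatin-related *Fstl1* (−1.03) and *Fstl3* (−0.78) were higher on the unruptured side.

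Cytokine signalling of the IL-6 family gave 5 calls of 10 genes, all 5 toward the unruptured side. *Osmr*, the oncostatin M receptor, ran from 5.13 to 24.3 (median 13.8) TPM in unruptured and from 1.25 to 7.0 (median 2.89) in ruptured libraries (log2 fold change −2.06 ± 0.21, adjusted p = 2.14e-08), and the shared receptor *Il6st* (−0.37), *Jak1* (−0.38), *Stat3* (−0.49) and the feedback inhibitor *Socs3* (−0.96) were lower-fold calls. *Il6* itself did not pass the test (log2 fold change 0.01 ± 0.28, adjusted p = 0.989). Insulin-like growth factor binding proteins formed a second block there, *Igfbp3* with *Igfbp6* (−2.32), *Igfbp4* (−2.04), *Igfbp5* (−1.26), *Igfbp7* (−0.92) and *Igfbp2* (−0.90). The receptor *Igf1r* (0.51) and *Pappa* (0.85), the protease that cuts IGFBP4, were higher on the ruptured side.

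Retinoid genes included both enzymes that led the unruptured side, with *Rdh10* (−1.06) and the retinol carrier *Rbp4* (−1.20), while *Crabp2*, which delivers retinoic acid to its receptor, was higher on the ruptured side, from 14.3 to 41.5 (median 22.4) TPM in ruptured and from 4.81 to 19.2 (median 14.4) in unruptured libraries (log2 fold change 1.05 ± 0.17, adjusted p = 3.81e-05). Wnt genes gave 5 calls on the ruptured and 3 on the unruptured side of 16 tested, 3 and 4 with limma on TPM, and 5 and 1 without the 3 libraries that stood apart: *Wnt6* (−2.68) and *Wnt5a* (−1.17) on the unruptured side, and *Porcn*, the antagonist *Sfrp2* (1.34), *Lgr4* (0.77) and *Fzd4* (0.75) on the ruptured side. Notch calls were 3 of 8 (37.5%, beside 10% of all genes tested), all on the ruptured side (*Heyl* 1.35, *Hey2* 0.70, *Notch2* 0.46). Library totals kept 3 of these calls and limma on TPM 1. Of 6 hedgehog genes tested, *Gas1* and its fellow co-receptor *Boc* (0.32) were called, and 1 call remained with library totals or with limma on TPM.

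Guidance genes were split 6 and 5 of 24 tested, and 2 and 6 with limma on TPM. *Sema7a*, a membrane-anchored semaphorin, ran from 11.1 to 49.3 (median 24.2) TPM in ruptured and from 9.96 to 24.1 (median 15.7) in unruptured libraries (log2 fold change 0.83 ± 0.13, adjusted p = 2.72e-05), with overlap, and missed the threshold within code letter C (adjusted p = 0.0602). *Epha4* (1.22) was higher on the ruptured side, and *Sema4a* (−1.73) and the neuropilins *Nrp1* (−0.89) and *Nrp2* (−1.07) on the unruptured side. Of 3 endothelin genes tested only the converting enzyme *Ece1* was called (0.38), on the ruptured side with TMM scaling, whereas the 1 call with library totals lay on the unruptured side. *Fxyd1*, a regulator of the sodium pump that the study followed by in situ hybridisation, had counts in 7 of 12 unruptured and 1 of 13 ruptured libraries, 16 and 1 counts in all and at most 6.37 TPM, and did not pass the filter.

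The machinery of protein synthesis and respiration was lower on the ruptured side across many genes by small amounts. Of 80 cytosolic ribosomal protein genes tested, 65 were called and all 65 were higher on the unruptured side, with a median log2 fold change of −0.40 and a range of −1.03 to 0.02. Library totals gave 78, and limma on TPM rescaled without the 12 satellite models 49. Many of these genes have processed pseudogenes of like sequence, so their counts can be split. *Rpl39*, among the largest, ran from 794 to 1282 (median 957) TPM in unruptured and from 281 to 693 (median 455) in ruptured libraries (log2 fold change −1.0 ± 0.12, adjusted p = 3.51e-07), with separate ranges on both scales. Of 72 nuclear genes of the respiratory chain, 29 were called, all 29 toward the unruptured side (median −0.26), while 1 of 12 mitochondrially encoded genes was called. The respiratory chain count followed the scaling, with 51 on the unruptured side under library totals, 46 with limma on TPM, and 14 there against 2 on the ruptured side with TPM rescaled without the satellite models. Of 36 proteasome genes 0 were called by edgeR with TMM factors or by DESeq2, and 5 had an unadjusted p under 0.05, with a median log2 fold change of −0.03. Library totals called 10 of them higher on the unruptured side, and limma on TPM 15 there and 1 on the ruptured side, which became 0 and 4 with TPM rescaled without the 12 satellite models.

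Of 23 genes of protein folding tested, which include cytosolic and mitochondrial chaperones beside those of the endoplasmic reticulum, 12 were higher on the unruptured side and 1, the mitochondrial *Hspd1* (0.46), on the ruptured side. Without the 3 libraries that stood apart the counts were 8 and 2, and with TPM rescaled without the satellite models 7 and 2. *Xbp1*, a transcription factor of the unfolded protein response, ran from 41.5 to 81.8 (median 52.7) TPM in unruptured and from 17.2 to 38 (median 25.3) in ruptured libraries (log2 fold change −0.87 ± 0.11, adjusted p = 5.98e-07), without overlap on either scale. Calreticulin (*Calr*, −0.80), *Manf* (−0.79), *Pdia4* (−0.57) and *Hspa5* (−0.35) were in the same direction. Of 14 integrated stress response genes 4 were called (28.6%, beside 21.4% of all genes tested). These were *Stc2* (−0.94), *Vldlr* (−0.64) and *Shmt2* (−0.61) on the unruptured and *Mthfd2* (0.42) on the ruptured side.

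Tubulins, noticed after their values were seen, were mostly higher on the unruptured side too. Of 15 alpha and beta tubulin genes 9 were tested, and all 9 were called in that direction, beside 11.3% of all genes tested. Their median log2 fold change was −1.41. *Tubb5* ran from 99 to 457 (median 164) TPM in unruptured and from 26.5 to 61.8 (median 40.3) in ruptured libraries (log2 fold change −1.99 ± 0.20, adjusted p = 2.14e-08), and *Tuba1a* ran from 348 to 1117 (median 503) TPM in unruptured and from 104 to 199 (median 161) in ruptured libraries (log2 fold change −1.54 ± 0.17, adjusted p = 6.81e-08). The ranges of 8 of the 9 were separate in TPM, against 101 of 8585 genes tested (1.18%). In normalised CPM those of 4 were separate, against 65 of 8585 (0.757%). As the set was noticed by its values, these counts describe it and are no test. Tubulin genes are similar in sequence, so counts can be split between them.

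Genes under p53 control leaned to the ruptured side, 8 of 13 against 0 on the unruptured side with TMM scaling, 5 with library totals and 2 with limma on TPM. *Ccng1*, cyclin G1, ran from 19.1 to 30.3 (median 24.7) TPM in ruptured and from 8.29 to 22 (median 12.7) in unruptured libraries (log2 fold change 1.13 ± 0.14, adjusted p = 6.43e-07). *Aen*, a nuclease of the apoptotic response, was separate in normalised CPM (0.76). The other calls were *Phlda3* (0.79), *Cdkn1a* (0.65), *Zmat3* (0.58), *Btg2* (0.49), *Trp53inp1* (0.45) and *Bax* (0.42). Apoptosis genes as a list gave 2 calls on each side of 22 tested, 18.2% in all, below the 21.4% of all genes tested. Mitotic genes gave 5 calls of 16 on the ruptured side, *Ccnb1* at 0.42 to 8.14 (median 3.94) TPM against 0 to 3.72 (median 1.21) TPM (log2 fold change 1.57 ± 0.36, adjusted p = 0.00168), with *Ccna2* (1.49), *Cdc20* (1.35), *Cdk1* (0.97) and *Top2a* (0.93). The cyclin *Ccnd2* (−0.53) and the inhibitor *Cdkn1b* (−0.45) were higher on the unruptured side, and library totals made the list 3 and 3. The median log2 fold change of the list was −0.07, with 9 of the 16 below 0.

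Transporters of amino acids were called 5 times on the ruptured and 2 times on the unruptured side of 13 tested. Library totals gave 4 and 2, and limma on TPM 3 and 2. The median log2 fold change of the list, 0.04, turned to −0.11 and −0.12 in these fits. The taurine transporter *Slc6a6* ran from 503 to 1054 (median 811) TPM in ruptured and from 204 to 609 (median 431) in unruptured libraries (log2 fold change 1.10 ± 0.14, adjusted p = 6.43e-07), separate in normalised CPM, and *Slc7a8* (0.96) and its heavy-chain partner *Slc3a2* (0.73) followed. *Slc38a2* (−0.54) and *Slc7a2* (−0.89) were higher on the unruptured side. Antioxidant genes gave 9 calls of 29 on the unruptured side (12 with library totals, 6 without the 3 libraries that stood apart, 4 with TPM rescaled without the satellite models), led by heme oxygenase *Hmox1* at 7.1 to 30.1 (median 14.8) TPM against 3.09 to 9.52 (median 4.74) TPM (log2 fold change −1.35 ± 0.18, adjusted p = 1.58e-06). *Sod3* (−1.29) and *Txnip* (−1.10) followed. On the ruptured side 3 were called, *Gclm* (0.84), *Gss* (0.34) and *Gstm2* (0.60), the first pair of glutathione synthesis, against 1 with library totals and 0 with limma on TPM. Immediate early genes gave 2 calls on the ruptured and 3 on the unruptured side of 16 (31.2%, beside 21.4% of all genes tested). Cell junction genes gave 3 and 3 of 14 (42.9%). The cell junction calls were led by *Cdh11* (−3.35), a cadherin of mesenchymal cells, on the unruptured side. Complement and chemokine genes were mostly under the filter; of 5 tested, *Cxcl12* (−1.32) and *Cd55* (−1.31) were higher on the unruptured and *Cx3cl1* (0.58) on the ruptured side. *C3*, the central complement component, was under the filter, with counts in all 12 unruptured and 2 of 13 ruptured libraries, 156 and 3 counts in all.

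Without hCG the putative sides, which share no library with this comparison, differed in 1613 of 9063 genes (17.8%). Of 8182 genes tested in both settings, 766 were higher on the ruptured side post-hCG, and 207 of these (27.0%) were also higher on the putative ruptured side, 30.1% of the 687 genes called there and beside 8.4% of all 8182; 41 (5.35%) were called the opposite way. Toward the unruptured side 276 genes were called in both, 29.4% of 939 and 39.8% of 693, beside 8.47% of all, with 22 opposite (2.34%). The side difference itself changed with hCG in 892 of 10013 genes (8.91%, interaction test).

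*Fst* was among the genes higher on the ruptured side in both settings (without hCG log2 fold change 1.46 ± 0.33, adjusted p = 0.00175), and *Dhrs3*, though it led the unruptured side in the presence of hCG, was also lower on the putative ruptured side (log2 fold change −1.60 ± 0.34, adjusted p = 0.000961). *Gas1* differed in the 2 settings: without hCG it was not called (log2 fold change −0.70 ± 0.38, adjusted p = 0.219), and the change in side difference was 2.84 ± 0.49, adjusted p = 9.72e-05. *Nap1l5* had a larger side difference without hCG (log2 fold change 4.42 ± 0.51, adjusted p = 9.85e-07), a change of −2.65 ± 0.68, adjusted p = 0.00877. *Cyp11a1* was higher on the putative unruptured side without hCG (log2 fold change −1.70 ± 0.48, adjusted p = 0.0122) and not called post-hCG, a change of 2.07 ± 0.55, adjusted p = 0.0114.

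**Figure D5:**
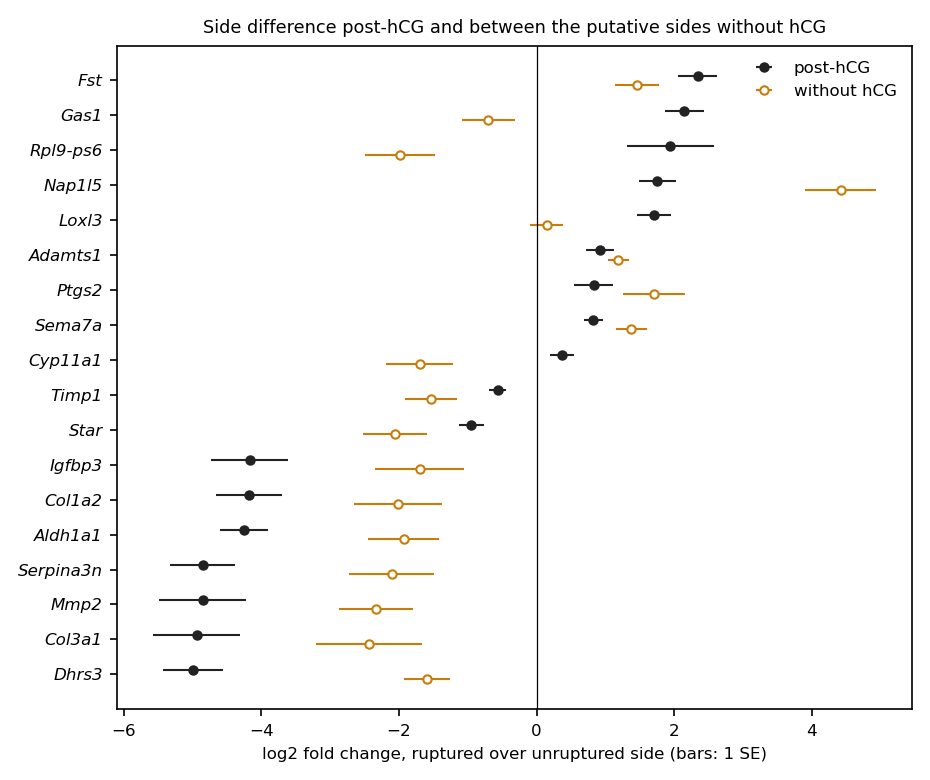
Log2 fold change between the sides post-hCG (filled) and between the putative sides without hCG (open), with bars of 1 standard error, for the named genes that were tested in both settings, ordered by the value post-hCG. Of the genes plotted, *Gas1*, *Rpl9-ps6* and *Cyp11a1* have opposite signs in the 2 settings, and *Nap1l5* has its larger value (4.42) without hCG.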

How the data were processed

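RNA from single microdissected follicle sides was read as paired-end Smart-Seq2 libraries. The authors aligned reads to GRCm38 with HISAT2, and the deposited tables give, for 25149 coding genes and each library, estimated counts, which are not whole numbers, and TPM values. The study's methods name a ComBat-seq batch correction of the counts; whether the deposited counts precede it is not given in the sources used here. The methods use DESeq2, which is an alternative here. TPM in these tables covers coding genes only, and other RNA classes were not used here.

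Groups came from the labelled side and treatment. Estimated counts were rounded and tested with edgeR 4.0.16 (R 4.3.3; quasi-likelihood F-test, TMM factors, filterByExpr at 10 counts and a total of 15, Benjamini-Hochberg threshold 0.05). The filter left 8585 genes. Where genes under it that the study names are given, their values are from a fit without the filter, other than *Fxyd1* and *C3*, given by their counts. Normalised CPM are counts scaled for depth with TMM factors. Side effects with and without hCG were compared as an interaction over all 4 groups. Alternatives were DESeq2 1.42.0, its size factors, library totals, no filter, a mean of at least 20 counts, limma 3.58.1 on log2(TPM + 1) or log2(TPM + 0.1) or on genes averaging 1 TPM or more, the replicate number as a block, a fit of all 4 groups, libraries of code letter C alone, and leaving out each library. Leaving out 3 libraries that stand apart, or 12 satellite gene models (from the fit, from library totals, or from TPM), was chosen after seeing the data. Scripts were tested on simulated data. No 2 libraries agreed within sampling noise.

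Named genes were the 8 with the largest fold in each direction among genes called, averaging 1 CPM or more and detected in a share of 0.5 or more of the higher side's libraries, then genes the study names for the sides, then members of the gene lists by adjusted p. The comparison, the members and the lists were chosen with earlier results of these data known. Lists are described by counts and medians, with no set test. Promoter windows came from RefSeq (GRCm38.p6), and gene positions and transcripts from GENCODE vM21 (GRCm38), with positions counted from 1. Counts carry no molecular identifiers and no stated strand.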

Additional observations from a re-analysis of the deposited data

Results flagged for a closer look

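For 14 named genes the difference between the sides post-hCG differed from that between the putative sides without hCG (interaction test, edgeR). The values are the side difference post-hCG minus that without hCG, in log2, and a positive value can come from a change on either side.

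*Gas1* changed by 2.84 ± 0.49, adjusted p = 9.72e-05, *Porcn* by 1.86 ± 0.58, adjusted p = 0.0314, *Loxl3* by 1.57 ± 0.37, adjusted p = 0.00369 and *Cyp11a1* by 2.07 ± 0.55, adjusted p = 0.0114, all positive. The satellite model *Gm10800* changed by 1.29 ± 0.41, adjusted p = 0.0348, where the median share of the 12 models was 9.91% without and 3.29% with hCG on the unruptured side and 9.89% and 8.65% on the ruptured side, and *Rpl9-ps6*, a pseudogene with uncertain counts, by 3.95 ± 0.85, adjusted p = 0.00168. Among negative values, *Nap1l5* changed by −2.65 ± 0.68, adjusted p = 0.00877, having been higher on the putative ruptured side without hCG. *Dhrs3* changed by −3.40 ± 0.66, adjusted p = 0.000427, *Aldh1a1* by −2.33 ± 0.76, adjusted p = 0.0416 and *Akr1b7* by −2.96 ± 0.95, adjusted p = 0.038.

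The study's genes *Serpinb2* (−4.97 ± 1.02, adjusted p = 0.000895), *Insl3* (−4.33 ± 1.44, adjusted p = 0.0464), *Has2* (−3.59 ± 0.72, adjusted p = 0.000662) and *Areg* (−2.26 ± 0.67, adjusted p = 0.0238) were also negative. These 4 did not pass the count filter between the sides post-hCG, and *Has2* was at most 0.54 TPM there.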

How the results depend on the processing

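Leaving out each library in turn gave 1611 to 1904 genes called between the sides post-hCG, the lowest without unruptured replicate 5. Across the other settings the count stayed within 1.5 times of 1833, except in code letter C, with 4 and 5 libraries, where it was 748. Between the putative sides without hCG, limma on log2(TPM + 1) gave 1034 in place of 1613. With the replicate number as a replicate block the counts were 2047 post-hCG (24 libraries), 1619 without hCG and 727 for the interaction. Over 12 pairs of libraries with the same number, the correlation of their deviations ran from −0.22 to 0.25, with 5 over 0.1. Sides of 1 follicle need not deviate together, so these values cannot decide whether the numbers pair the sides. What the block measures is not known. The median log2 fold change of some lists changed sign or lost its balance of calls: with library totals, cumulus −0.0357, cholesterol −0.14, TGF-beta −0.0198, semaphorin −0.0291 and endothelin 0.23; with limma on log2(TPM + 1), cumulus −0.11, cholesterol −0.29, TGF-beta −0.0683, semaphorin −0.18, prostaglandin 0.13 and Wnt 0.0129; with library totals less the satellite models, TGF-beta 0.0715. Amino acid transport changed sign too, at −0.11 with library totals and −0.12 with limma on log2(TPM + 1). The causes beyond the scaling itself were not tested. Of the values of single named genes, none changed direction; 222 kept their side of the threshold and 20 lost it, for *Ptgs2*, *Rpl9-ps6*, *Dmbt1*, *Sema7a*, *Adamts1*, *Cdh15*, *Timp1* and *Star*. The count filter asks for about 10 counts in about as many libraries as the smaller side holds. It removed low genes such as *Has2* and *Fxyd1*. It also removed *Insl3* and *Serpinb2*, which were low in some unruptured libraries and well above that in others.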

Other observations

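Genes outside the lists also kept the sides apart; they are named because their ranges did not overlap, so they were chosen after their values were seen. On the unruptured side *Ifitm3*, an interferon-induced membrane protein gene, ran from 21.2 to 90.8 (median 52.6) TPM in unruptured and from 5.43 to 16.7 (median 8.57) in ruptured libraries (log2 fold change −2.28 ± 0.22, adjusted p = 1.28e-08). *Vim*, the intermediate filament vimentin, ran from 629 to 2031 (median 1054) TPM in unruptured and from 232 to 620.3 (median 327) in ruptured libraries (log2 fold change −1.27 ± 0.15, adjusted p = 3.21e-07), separate in TPM. *Mif*, a cytokine gene, ran from 2346 to 4187 (median 3636) TPM in unruptured and from 1319 to 2243 (median 1602) in ruptured libraries (log2 fold change −0.94 ± 0.10, adjusted p = 7.62e-08). These 3 were called in the same direction with library totals. *Xdh*, xanthine dehydrogenase, ran from 1.01 to 10.3 (median 2.66) TPM in unruptured and from 0.060 to 0.67 (median 0.18) in ruptured libraries (log2 fold change −3.23 ± 0.38, adjusted p = 2.84e-07), and *Eif4ebp1*, a repressor of cap-dependent translation, ran from 129.5 to 217 (median 170.2) TPM in unruptured and from 42.6 to 97 (median 65.1) in ruptured libraries (log2 fold change −0.97 ± 0.09, adjusted p = 1.28e-08). Clusterin (*Clu*), a secreted chaperone, ran from 430.5 to 1978 (median 641) TPM in unruptured and from 143 to 385 (median 268) in ruptured libraries (log2 fold change −1.27 ± 0.21, adjusted p = 4.3e-05).

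On the ruptured side the genes of this kind were separate in normalised CPM and overlapped in TPM. *Psap*, the precursor of the lysosomal saposins, ran from 2968 to 4289 (median 3748) TPM in ruptured and from 1798 to 3322 (median 2720.1) in unruptured libraries (log2 fold change 0.75 ± 0.11, adjusted p = 6.95e-06), and *Acsl1*, which activates long-chain fatty acids, ran from 6.15 to 22.9 (median 12.2) TPM in ruptured and from 4.52 to 10.1 (median 7.38) in unruptured libraries (log2 fold change 0.89 ± 0.11, adjusted p = 3.47e-07). *Parm1* had a log2 fold change of 1.19. The model *RP23-478I18.1*, which has no position in the annotation used here, was the 1 gene beside the satellite models whose TPM lay wholly above the unruptured range.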
